A study of Mus musculus with 7 samples.

Results

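The collagen genes were all genes of the deposited table whose symbol has the form Col, a number, a and a number. There were 38 of them among 21176 genes, made up of 10 fibrillar, 6 type IV (Col4a), 6 type VI (Col6a) and 16 other collagen genes. RNA was measured in follicular dendritic cells (FDCs), the stromal cells that hold antigen in B-cell follicles, sorted from popliteal lymph nodes. The mice were male, not immunized and 8 to 12 weeks old, and were either wild type (WT, 4 samples) or knocked out for Ngfr, which encodes the p75 neurotrophin receptor (Ngfr KO, 3 samples). Each sample pooled nodes from several animals, and neither the knockout allele nor the sorting gate is given in the sources used here. The comparison asks which FDC transcripts differ when Ngfr is absent.

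Collagens are matrix proteins built from 3 chains wound into a triple helix. Fibrillar collagens form the rope-like fibres of connective tissue, type IV chains form the sheet of basement membranes, and type VI chains form beaded filaments around cells. In lymph nodes, reticular cells wrap collagen fibres into conduits that carry fluid, and blood vessels lie on type IV collagen. The chains are hydroxylated and folded inside the cell, trimmed and cross-linked outside it, and bound by integrin and discoidin receptors.

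The 6 type IV genes lie in head-to-head pairs, each pair read outward from a shared region. On GRCm38 the annotated starts of Col4a1 and Col4a2 (chromosome 8) were 21 bases apart, those of Col4a3 and Col4a4 (chromosome 1) 72 bases and those of Col4a5 and Col4a6 (chromosome X) 1309 bases. The bases before the starts of Col4a5 and Col4a6 are shown because these neighbours were both lower in Ngfr KO. They are RefSeq promoter windows (GRCm38.p6), ending at the annotated gene start. Col4a5 is the plus-strand stretch chrX:141475169-141475384, and Col4a6 is the minus-strand stretch chrX:141474077-141474326. Capitals mark a CCAAT box in Col4a5, and a CACCC and a GC box (GGGCGG, read on the opposite strand as CCGCCC) in Col4a6. The full 250-base Col4a5 window also holds a GC box, past the annotated gene start and so not printed.
Col4a5: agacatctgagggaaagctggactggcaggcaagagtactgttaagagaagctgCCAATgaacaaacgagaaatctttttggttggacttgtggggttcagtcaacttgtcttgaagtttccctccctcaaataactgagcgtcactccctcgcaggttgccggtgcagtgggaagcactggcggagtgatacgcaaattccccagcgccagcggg
Col4a6: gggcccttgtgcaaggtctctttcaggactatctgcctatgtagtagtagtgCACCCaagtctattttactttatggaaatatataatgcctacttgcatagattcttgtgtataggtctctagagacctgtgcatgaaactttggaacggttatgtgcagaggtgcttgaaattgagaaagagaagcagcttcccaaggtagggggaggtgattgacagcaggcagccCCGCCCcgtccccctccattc
These motifs are common. Searched on both strands in the 250 bases before each RefSeq start, CCAAT was in 33.8% of 32544 promoters and in 11 of the 30 collagen genes that matched the RefSeq table. GGGCGG was in 33.0% of all promoters and in 20 of the 30, and CACCC was in 52.1% and in 21. TATAAA was in 12.3% and in 4, and ACAATGG was in 3.03% and in none. A GC box can overlap a CACCC match, and the matches describe letters only. Collagen windows were richer in G and C (median 60.0%) than all windows (52.4%).

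Libraries held 17244925 to 18873542 reads in WT and 20741770 to 21538400 in Ngfr KO, so every Ngfr KO library was the deeper. Values are read counts scaled per library, and a value of 1 stood for 230 to 295 reads. Ngfr itself had values of 0.377, 0.677, 1.30 and 1.14 in WT and 0.305, 0.353 and 0.184 in Ngfr KO. Its groups did not overlap (limma log2 change -0.52, SE 0.18, adjusted p = 0.0431; edgeR adjusted p = 0.0574). Reads over the whole gene do not show which part was deleted. Beside the marker counts that follow, limma called 34.2% of all 8326 tested genes, 18.3% higher and 15.8% lower in Ngfr KO. Of 12 tested FDC markers, 11 were higher in Ngfr KO, and they summed to 1810 to 5090 in WT samples and 7840 to 10400 in Ngfr KO samples. All 11 tested endothelial markers were lower, with sums from 148 to 193 in WT, falling between 36.3 and 66.0 in Ngfr KO, and none of the 14 listed was near 0 in every sample. Fibroblast and reticular markers summed to 93.0 to 107 in WT 1 to 3, to 218 in WT 4 and to 254 to 365 in Ngfr KO, with 4 higher and 1 lower of 8 tested. Pericyte and smooth muscle markers summed to 25.5 to 62.2 and 48.4 to 80.5, with 3 higher and none lower of 6. B-cell markers summed to 10.8 to 17.1 and 7.90 to 26.4 (1 higher of 3), T-cell markers to 1.64 to 7.54 and 2.57 to 5.47 (none called of 3), and myeloid markers to 1.93 to 7.0 and 4.54 to 30.1 (1 higher of 1, with C1qa below 0.05 in every sample). The part of these cell types in any collagen difference was not tested, and in bulk RNA fewer cells of a type and less RNA per cell cannot be told apart.

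Collagen transcripts were a small part of these libraries. All 38 genes together held 63701 reads, or 0.0544% ± 0.0145 of a WT library (SD, n = 4) and 0.0397% ± 0.00546 of an Ngfr KO library (SD, n = 3). The groups overlapped: the lowest WT share, 0.0423%, was under the highest Ngfr KO share, 0.0459%. Of the 38 genes, 27 had a mean value under 1.

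By class, type IV genes made up 23.3% ± 3.11 of the collagen reads in WT and 17.3% ± 3.81 in Ngfr KO, and their ranges overlapped. Type VI genes made up 4.24% ± 1.42 and 8.88% ± 0.975, and here the lowest Ngfr KO sample (8.20%) lay above the highest WT sample (6.23%). The summed type VI value did overlap, at 1.67 ± 0.923 in WT and 2.71 ± 0.185 in Ngfr KO. Fibrillar genes summed to 11.1 ± 6.21 and 11.1 ± 2.33, and the other collagens to 16.4 ± 1.68 and 11.6 ± 0.819. For the other collagens every Ngfr KO sum (10.7 to 12.3) was below every WT sum (14.3 to 18.4), and Col12a1 alone carried most of that gap. Without Col12a1 the other collagens summed to 7.51 ± 1.94 in WT and 7.19 ± 0.109 in Ngfr KO, and the groups overlapped. Shares of collagen reads also move with this abundant gene, since it is in their total. These sums are descriptions, and long transcripts weigh more in them.

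**Figure D1:**
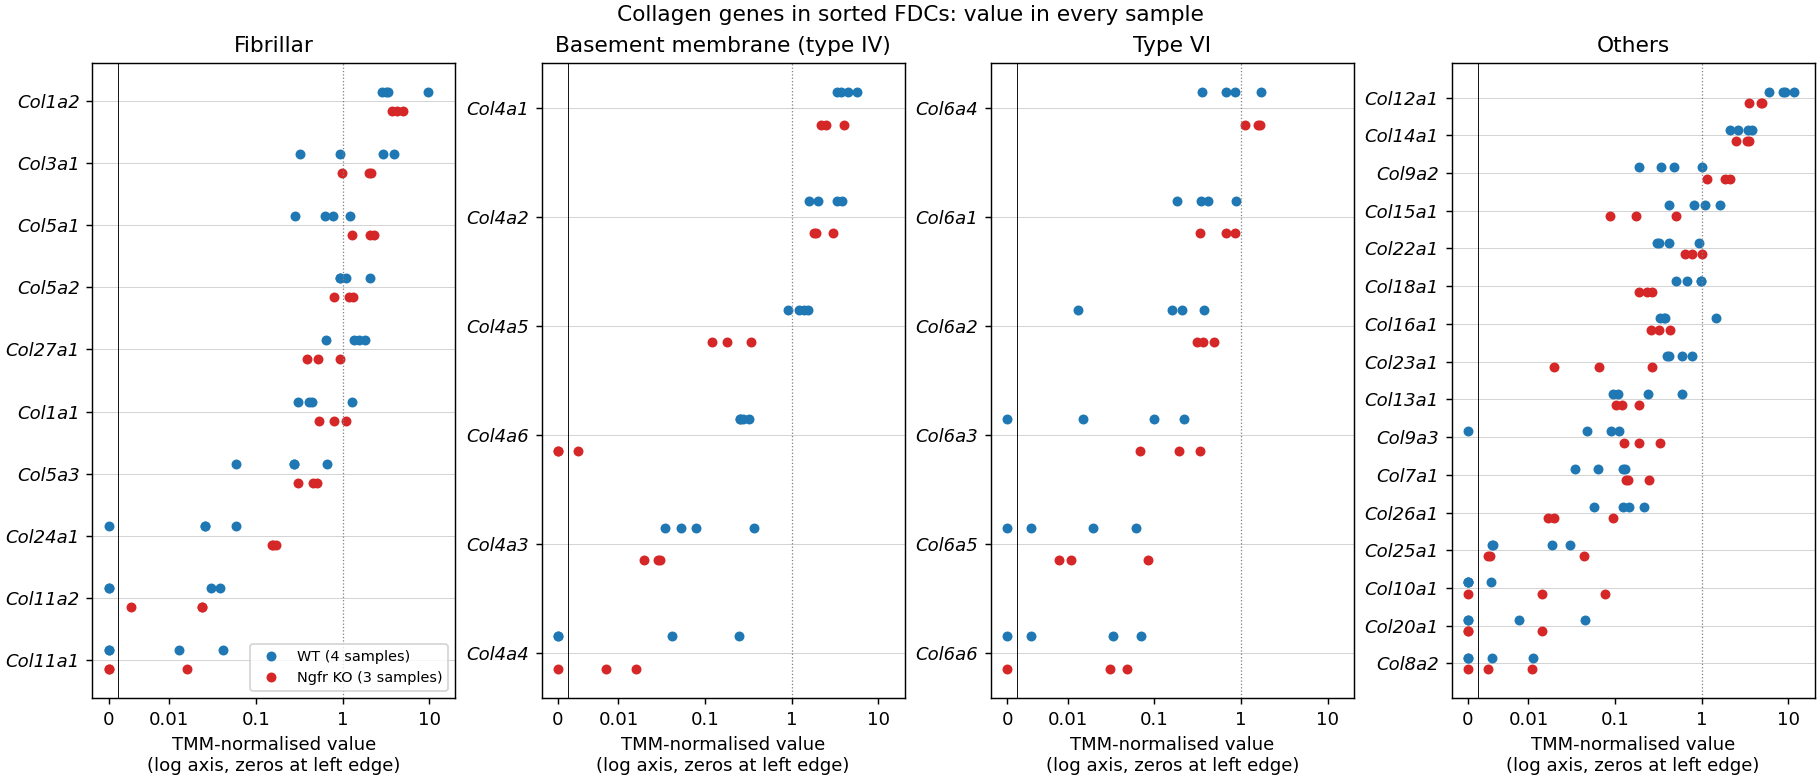
Value of each of the 38 collagen genes in each sample (horizontal log axis, zeros at the left edge; blue points, 4 WT; red points, 3 Ngfr KO), by class, ordered by mean; the dotted line marks a value of 1. Col4a5 and Col4a6 separate with Ngfr KO on the left, Col9a2 and Col5a1 with Ngfr KO on the right, and WT 4 stands apart for Col1a2 at 9.56.

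Of the 38 genes, 12 had 3 or more samples with a value of 1 or higher and were tested with limma on log2(value + 1). Col5a1 and Col9a2 were higher in Ngfr KO, and Col4a5 and Col12a1 were lower (adjusted p under 0.05, Benjamini-Hochberg over 8326 genes). These 4 are 33.3% of those tested, beside 34.2% of all tested genes (18.3% higher and 15.8% lower). Groups did not overlap for 4 of the 12, beside 40.9% of all genes tested. The median log2 change was -0.04, beside 0.02 for all genes. The shares of collagen genes were thus near those of the whole table. Adding 1 to small values shrinks their changes, so edgeR's quasi-likelihood test was also run on the recovered reads, where 29 collagen genes could be tested. It called the same 4 genes in the same directions, and also Col4a6 and Col18a1 as lower. These 6 are 20.7% of those tested, beside 15.2% of all genes (8.67% higher and 6.55% lower). Groups did not overlap for 11 of the 29, with 5 higher and 6 lower, beside 30.5% of all genes. Genes that passed a filter through 1 group alone are bound to differ. Col4a5 and Col27a1 passed the limma filter through their WT samples only. Col5a1, Col9a2 and Col6a4 reached 1 in every Ngfr KO sample and, among WT samples, in WT 4 only. Ngfr KO alone was thus enough to pass them. Col4a6 and Col4a3 had reads enough for edgeR in WT alone. Col24a1 had at least 43 reads in each Ngfr KO sample and at most 15 in WT, so Ngfr KO alone was enough to pass it.

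**Figure D2:**
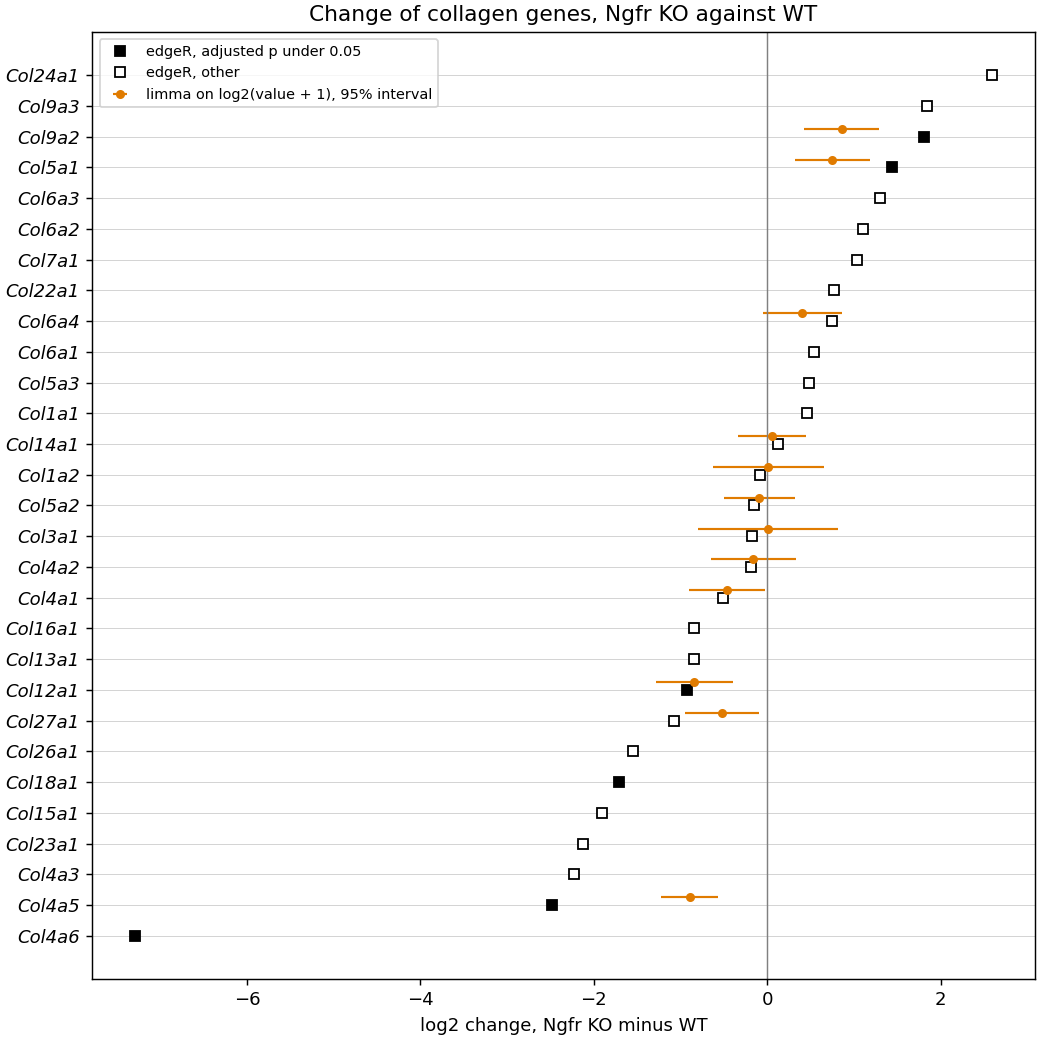
Log2 change, Ngfr KO minus WT (horizontal axis), of the 29 collagen genes tested by edgeR (squares; filled where adjusted p was under 0.05) and of the 12 tested by limma on log2(value + 1) (circles, with 95% intervals). Col4a6 lies farthest to the left at -7.29, and the limma changes of Col4a5, Col9a2 and Col5a1 are smaller than their edgeR changes.

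Among the fibrillar collagens, Col5a1 was higher in Ngfr KO and the chains of types I and III were not called. Col5a1 encodes a chain of type V collagen, which lies within type I fibrils and limits their thickness (chr2:27886425-28039514, plus strand). Its values were 0.782, 0.281, 0.626 and 1.21 in WT and 2.31, 1.30 and 2.05 in Ngfr KO. The lowest Ngfr KO sample lay just above the highest WT sample, which was WT 4. The limma log2 change was 0.75 (SE 0.20, adjusted p = 0.0130), and the means were 0.724 ± 0.385 and 1.89 ± 0.528, 2.60-fold apart. The edgeR change was 1.44 (adjusted p = 0.0445). The call was lost without Ngfr KO 1 (limma 0.64, adjusted p = 0.0566). With edgeR it held in 1 of 7 fits that left out a sample, the one without WT 4. An antisense RNA overlapping its exons, 2810430I11Rik, had a value of at most 0.116.

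The other chains of type V did not share this call. Col5a2, its usual partner, had a limma log2 change of -0.09 (95% interval -0.50 to 0.32, adjusted p = 0.728). Its values were 0.942, 0.947, 1.09 and 2.09 in WT and 1.2, 0.787 and 1.32 in Ngfr KO, so the groups overlapped and WT 4 stood high. Col5a3 had mean values of 0.318 ± 0.250 and 0.426 ± 0.105 (edgeR adjusted p = 0.664). Whether Col5a1 changed differently from Col5a2 was not tested.

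Col1a2, a chain of type I collagen (chr6:4504814-4541544), had values of 3.21, 3.35, 2.87 and 9.56 in WT and 4.95, 3.68 and 4.29 in Ngfr KO. WT 4 was the highest of all samples, and the other WT samples were below every Ngfr KO sample. The limma log2 change was 0.01 (95% interval -0.63 to 0.66, adjusted p = 0.975). Without WT 4 it was 0.35 (adjusted p = 0.115). Fibroblast and reticular, FDC, and pericyte and smooth muscle markers were also highest among WT samples in WT 4, and the other marker lists were not. A link of any of them to Col1a2 was not tested. Col1a1, the other chain of type I, had mean values of 0.609 ± 0.447 and 0.811 ± 0.287 (edgeR adjusted p = 0.573), and it too was highest in WT 4 at 1.27. Per kilobase of exon, Col1a1 was 0.237 ± 0.0229 of Col1a2 in WT and 0.355 ± 0.116 in Ngfr KO. The protein holds more Col1a1 than Col1a2 chains, so the RNA ratio lay the other way. The Col1a2 length counts every annotated exon.

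Col3a1, which forms fine reticular fibres with type I, ranged from 0.326 to 3.90 in WT and from 0.987 to 2.13 in Ngfr KO. The limma change was 0.01 (95% interval -0.80 to 0.82, adjusted p = 0.991). This was the widest interval among the 12 tested. Col27a1 ranged from 0.643 to 1.83 in WT and from 0.393 to 0.933 in Ngfr KO, with a limma change of -0.52 (adjusted p = 0.0574). It was called lower without WT 3 (-0.68, adjusted p = 0.0111) and without Ngfr KO 3 (-0.66, adjusted p = 0.0404). Only WT samples reached 1 for Col27a1, so a lower value was built into its entry, which these fits reuse. Col24a1 was sparse, with 15, 7, 6 and 0 reads in WT and 43, 45 and 43 in Ngfr KO. Its groups did not overlap, yet edgeR did not call it (log2 change 2.59, adjusted p = 0.134). Its Ngfr KO samples alone were enough for it to enter the test, so a higher value was favoured by its selection. Col11a1 and Col11a2, known from cartilage, had at most 11 and 10 reads in any sample.

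The 3 lowest edgeR log2 changes among the 29 tested collagen genes were those of the type IV genes Col4a6, Col4a5 and Col4a3, and the first 2 were called. Col4a6 and Col4a3 entered the edgeR test through WT alone, so a low change was built into their selection. Col4a5 (chrX:141475385-141689234, plus strand) had values of 1.37, 1.22, 1.55 and 0.900 in WT and 0.337, 0.180 and 0.120 in Ngfr KO. The highest Ngfr KO sample was well under the lowest WT sample. Means were 1.26 ± 0.274 and 0.212 ± 0.112, so WT was 5.92-fold the higher. The limma log2 change was -0.89 (SE 0.15, adjusted p = 0.00145), and the edgeR change, free of the added 1, was -2.48 (adjusted p = 0.00671). It was called in all 15 alternative limma fits that tested it and in all 7 edgeR fits that left out a sample. All of these limma fits but the unfiltered one (adjusted p = 0.0154) reuse its entry through WT samples, so they do not test that selection.

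Col4a6, its head-to-head neighbour (chrX:141165403-141474076, minus strand), was nearly undetected in Ngfr KO. It had 65, 85, 59 and 72 reads in WT and 0, 1 and 0 in Ngfr KO, in the deeper libraries. Scaled for depth, the WT to Ngfr KO ratio was 227, with a 95% counting interval of 40.4 to 8990. The edgeR adjusted p was 0.00475, and the call held in all 7 fits that left out a sample. Its WT level was low but even, at 0.276 ± 0.0300. Chains encoded by Col4a5 and Col4a6 join in a network found in the basement membranes of skin, smooth muscle and some epithelia.

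Col4a1 and Col4a2, the chains of nearly all basement membranes, did not reach the threshold. Col4a1 (chr8:11198423-11312826, minus strand) had values of 5.72, 3.30, 3.74 and 4.47 in WT and 4.00, 2.18 and 2.45 in Ngfr KO. The groups overlapped through Ngfr KO 1, and the limma change was -0.46 (95% interval -0.90 to -0.02, adjusted p = 0.0929). Without Ngfr KO 1 it was called lower (-0.66, adjusted p = 0.0424). Col4a2 (chr8:11312805-11449287, plus strand) had values of 3.34, 2.03, 1.58 and 3.76 in WT and 3.02, 1.90 and 1.79 in Ngfr KO. Its samples were fully mixed, with a change of -0.16 (95% interval -0.65 to 0.33, adjusted p = 0.597). The annotated exons of these neighbours overlap on opposite strands, so some reads could belong to either. Per kilobase, Col4a1 was 1.53 ± 0.430 of Col4a2 in WT and 1.13 ± 0.0996 in Ngfr KO.

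Set against Col4a1 per kilobase, Col4a5 was 0.266, 0.410, 0.459 and 0.224 in WT and 0.0938, 0.0914 and 0.0546 in Ngfr KO. The ratio did not overlap between groups, so Col4a5 was lower also as a share of Col4a1. Col4a3 and Col4a4, which join Col4a5 in the kidney filter, were close to the detection limit. Col4a3 had 20, 14, 85 and 9 reads in WT and 8, 9 and 5 in Ngfr KO, with WT 3 far above the rest (edgeR adjusted p = 0.191). Col4a4 was also highest in WT 3, with 57 reads, and had 0 to 11 in the other samples. In the same samples the median limma log2 change was -1.46 for the tested endothelial markers and 1.44 for the tested FDC markers. A link of either to the type IV genes was not tested.

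**Figure D3:**
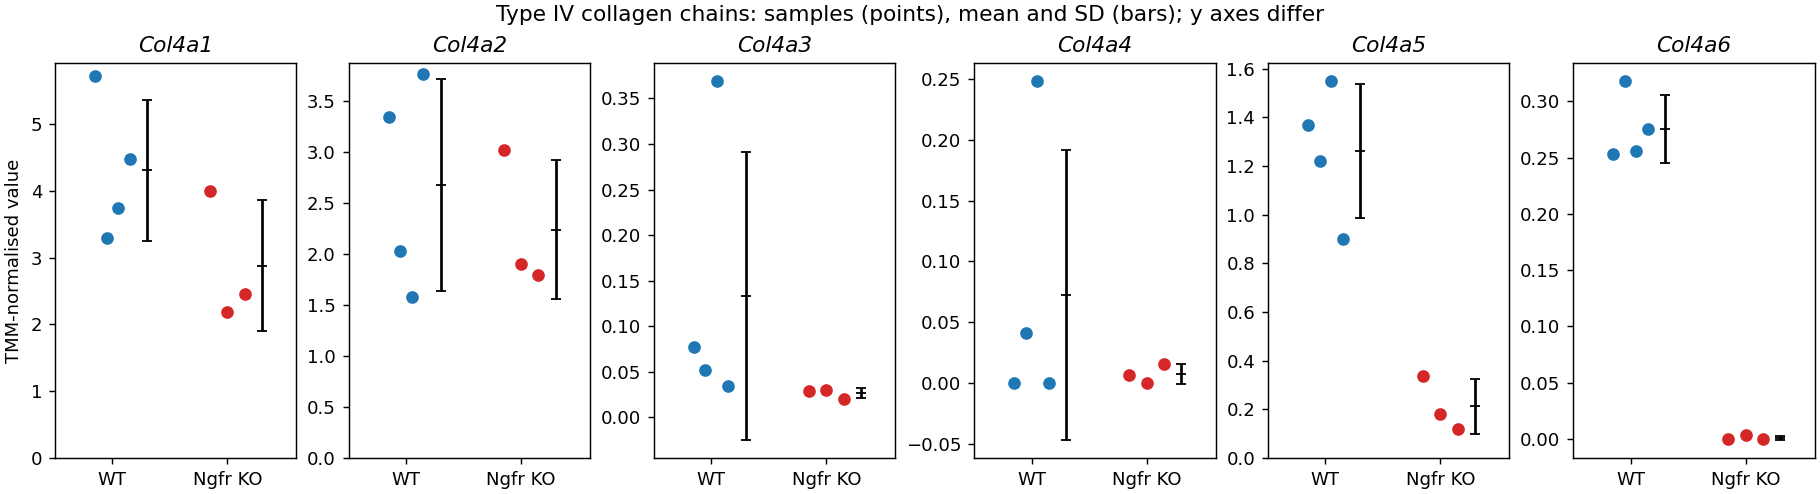
Values of the 6 type IV collagen genes (vertical axis, scaled reads, a separate range for each gene) in 4 WT (blue) and 3 Ngfr KO (red) samples; bars give the mean and SD, which reach below 0 where 1 sample dominates. Groups separate widely for Col4a5 and Col4a6 and overlap for Col4a1 and Col4a2, and WT 3 alone carries Col4a3 and Col4a4.

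No type VI gene was called. Col6a4, the only one tested by limma, had a change of 0.40 (95% interval -0.05 to 0.86, adjusted p = 0.151). Its values were 0.350, 0.677, 0.852 and 1.69 in WT and 1.67, 1.10 and 1.55 in Ngfr KO. Only WT 4 reached the Ngfr KO range, and without WT 4 the gene was called higher (0.59, adjusted p = 0.0258). In that fit only Ngfr KO samples reached 1 and the main filter was kept, so a higher value was built in. Col6a1, Col6a2 and Col6a3, the chains of the common type VI molecule, had edgeR log2 changes of 0.54, 1.11 and 1.30, and the highest of their mean values in either group was 0.622. Their adjusted p-values were 0.540, 0.377 and 0.515. Col6a5 and Col6a6 had at most 25 and 18 reads in any sample. The median edgeR change of the 4 tested type VI genes was 0.93, beside -0.02 for all genes.

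Among the remaining 16 genes, changes went both ways. Col12a1 (chr9:79598991-79718831, minus strand) encodes a collagen that sits on the surface of type I fibrils. Its values were 11.6, 8.69, 9.07 and 6.04 in WT and 4.76, 3.55 and 4.99 in Ngfr KO. All Ngfr KO samples lay below WT 4, the lowest WT sample. The means, 8.86 ± 2.29 and 4.43 ± 0.772, differed 2.00-fold (limma log2 change -0.84, SE 0.20, adjusted p = 0.00890; edgeR -0.93, adjusted p = 0.0255). With each library's trend against transcript length and GC content removed, the change was -0.48 and the call was lost (adjusted p = 0.0620). With edgeR, leaving out WT 1, WT 2, Ngfr KO 1 or Ngfr KO 2 gave adjusted p-values from 0.0573 to 0.107. Col14a1, a related fibril-surface collagen (chr15:55307750-55520803), had values of 2.64, 2.12, 3.37 and 3.81 in WT and 3.35, 3.5 and 2.47 in Ngfr KO. Its groups overlapped throughout (limma 0.05, 95% interval -0.34 to 0.45, adjusted p = 0.832).

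Col9a2 (chr4:121039385-121055322, plus strand) encodes a chain of type IX collagen, best known from the surface of cartilage fibrils. Its values were 0.187, 0.483, 0.339 and 1.01 in WT and 1.15, 1.87 and 2.10 in Ngfr KO. WT 4 came closest to the Ngfr KO samples, yet the groups did not overlap. Means were 0.506 ± 0.360 and 1.71 ± 0.493, a 3.37-fold difference (limma log2 change 0.86, SE 0.20, adjusted p = 0.00687; edgeR 1.81, adjusted p = 0.0348). The limma call held in all 15 alternative fits that tested it, while with edgeR it held in 1 of 7 fits that left out a sample, the one without WT 4. All of these limma fits but the unfiltered one (adjusted p = 0.0474) reuse its entry through Ngfr KO samples. Its partner chain Col9a3 had 23, 30, 11 and 0 reads in WT and 35, 55 and 83 in Ngfr KO. These groups did not overlap either, and edgeR did not call the gene (log2 change 1.84, adjusted p = 0.278).

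Col15a1 and Col18a1 encode the multiplexins, collagens of basement membrane zones, those of vessels among them. Col18a1 (chr10:77052178-77166548, minus strand), whose protein can be cut to release endostatin, had values of 0.669, 0.505, 0.974 and 0.980 in WT and 0.189, 0.231 and 0.264 in Ngfr KO. Every Ngfr KO sample was below every WT sample (edgeR log2 change -1.71, adjusted p = 0.0184). The call was lost without Ngfr KO 1 (adjusted p = 0.0719) and without Ngfr KO 2 (adjusted p = 0.0594). Col15a1 had values of 1.63, 0.823, 0.417 and 1.08 in WT and 0.0871, 0.176 and 0.500 in Ngfr KO. WT 3 fell within the Ngfr KO range, and the edgeR change was -1.91 (adjusted p = 0.0617). Col15a1 was called without WT 3 (adjusted p = 0.0383) and without Ngfr KO 3 (adjusted p = 0.0252).

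Col23a1, a transmembrane collagen, had values of 0.416, 0.397, 0.778 and 0.595 in WT and 0.268, 0.0644 and 0.0200 in Ngfr KO. All WT samples were above these, and the edgeR change was -2.13 (adjusted p = 0.0886). Without Ngfr KO 1 it was -3.57 and called (adjusted p = 0.0303). Col7a1, the anchoring fibril collagen of skin, had 8 to 34 reads in WT and 37 to 62 in Ngfr KO (edgeR adjusted p = 0.383). Col22a1 had a mean of 0.493 ± 0.290 in WT and 0.804 ± 0.189 in Ngfr KO (edgeR adjusted p = 0.263). It was called higher without WT 3 alone (adjusted p = 0.0409). Col13a1, Col16a1 and Col26a1 overlapped between groups, with edgeR log2 changes from -1.55 to -0.84 and adjusted p-values of 0.492, 0.367 and 0.307. Col8a2, Col10a1, Col20a1 and Col25a1 had at most 19 reads in any sample and were too sparse for edgeR.

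Levels of different genes are set side by side here per kilobase of exon. The length counts every annotated exon, 12.4 kilobases for Col1a2, and not the transcripts in use. The order of genes therefore depends on the annotation. Collagen genes are long, with a median of 7.80 kilobases beside 4.53 for all genes tested by limma. Over the 7 samples the highest levels per kilobase were Col4a1 (0.495), Col12a1 (0.457), Col14a1 (0.433), Col4a2 (0.376) and Col1a2 (0.367). In WT, Col12a1 came first at 0.582, with Col4a1 next at 0.577, a gap smaller than their spread over samples. In Ngfr KO, Col9a2 came first at 0.551, up from rank 8 in WT, and Col12a1 stood at rank 6 with 0.291. Col5a1 went from rank 18 to rank 7, Col4a5 from rank 7 to rank 21, and Col4a6 from rank 22 to rank 38, the last.

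**Figure D4:**
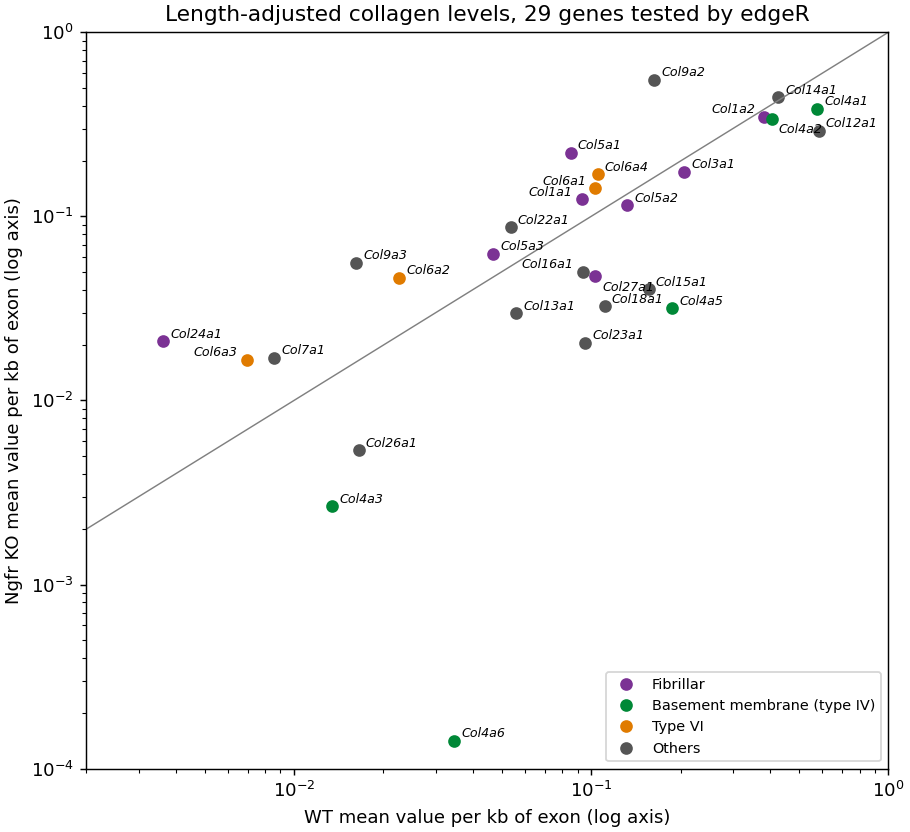
Mean value per kilobase of exon in WT (horizontal log axis, n = 4) and Ngfr KO (vertical log axis, n = 3) for the 29 collagen genes tested by edgeR, coloured by class; the line marks equal levels. Col9a2 lies above the line at 0.163 and 0.551, Col12a1 below it at 0.582 and 0.291, and Col4a6 far below all others.

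The enzymes that modify collagen chains also changed in both directions. Of 12 tested hydroxylation genes, 3 were higher and 3 lower (limma). For this and the lists that follow, the share called among all tested genes was 34.2%, with 18.3% higher and 15.8% lower, and lists with so few tested genes are described by their members only. The prolyl hydroxylase subunits P4ha2 (log2 change 1.10, SE 0.20, adjusted p = 0.00224), P4ha1 (0.74, SE 0.17, adjusted p = 0.00777) and P4hb (0.68, SE 0.20, adjusted p = 0.0205) rose together. P4ha1, which helps make the hydroxyproline that stabilises the helix, had values of 2.16, 2.14, 2.38 and 2.05 in WT and 3.28, 5.92 and 4.07 in Ngfr KO. The WT samples were tightly grouped, all below the Ngfr KO samples. The lysyl hydroxylase Plod1 (-0.71, adjusted p = 0.00870), the prolyl 3-hydroxylase family member P3h3 (-0.87, adjusted p = 0.00390) and the galactosyltransferase Colgalt2 (-0.79, adjusted p = 0.00656) fell. P3h3 and Colgalt2 reached 1 in WT samples only, so a lower value was built into their entry. P4ha2 reached 1 in every Ngfr KO sample and, among WT samples, in WT 3 only, so Ngfr KO alone was enough to pass it. In the folding and export list 1 of 8 tested genes was called, Creb3l2, a transcription factor of secretory genes (-0.86, adjusted p = 0.00235). The collagen chaperone gene Serpinh1 was not called (-0.15, 95% interval -0.64 to 0.34).

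Outside the cell, Pcolce, which speeds the trimming of fibrillar procollagens, was higher in Ngfr KO. Its values were 1.05, 1.87, 3.03 and 5.16 in WT, and the Ngfr KO samples spanned 9.81 to 14.1 (limma log2 change 1.81, SE 0.30, adjusted p = 0.00145). It was 1 of 2 tested processing genes, and Sparc, the other, was not called (0.31, adjusted p = 0.297). Both tested cross-linking genes were lower. Tgm2, a transglutaminase, changed by -1.44 (adjusted p = 0.000590), and Loxl2, a lysyl oxidase that acts on type IV collagen among others, by -0.72 (adjusted p = 0.00632). Loxl2 reached 1 in WT samples only, so a lower value was built into its entry. Of 5 tested receptors, the integrin genes Itga1 (-1.47, adjusted p = 0.00499) and Itga2 (-0.69, adjusted p = 0.0141) were lower. The discoidin receptor gene Ddr1 was higher (0.61, adjusted p = 0.00939). Of 4 tested degradation genes, Ctsk, a collagen-cutting cathepsin, was higher (1.00, adjusted p = 0.00199), as was Pepd, a peptidase that frees proline (0.88, adjusted p = 0.00259). The matrix protease genes Mmp14 (0.08, adjusted p = 0.707) and Mmp9 (0.57, adjusted p = 0.0700) were not called.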

How the data were processed

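The authors deposited normalised signal for each gene, in a table whose name calls the values TMM (trimmed mean of M values). Libraries were made with SMART-Seq v4 and Nextera XT, per the labels' protocols. The submitters' processing notes name mm10 and bcl2fastq 2.20.0.422, and the aligner and counter are not given in the sources used here. In every sample 100% of the deposited values were whole multiples of 1 step, to within 0.1 of a read, which recovered the reads (3 reads equal 0.0102 to 0.0130). Intervals on reads cover counting error only.

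Genes reaching 1 in 3 or more samples were tested with limma 3.58.1 (R 4.3.3; lmFit, eBayes with trend) on log2(value + 1). The recovered reads were tested with edgeR 4.0.16 (quasi-likelihood). Both adjust by Benjamini-Hochberg over all genes tested. Ngfr failed the limma filter and was added to a fit of 8327 genes. The scripts were tested on simulated data. P-values measure the spread between these pooled samples. Coordinates, strands and lengths (union of annotated exons) are from GENCODE M21 on GRCm38, and the counting is not stated to use strand.

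Collagen genes and the lists (hydroxylation, folding and export, processing, cross-linking, receptors, degradation, cell markers) were chosen with earlier results of these data known. Values were to be printed for called collagens and the 5 highest per kilobase, and names for the called genes with the 3 largest changes per direction in each pathway list. Other values were chosen after they were seen. Alternatives were pseudocounts of 0.1 and 5, filters, normalizations, robust eBayes, a replicate block, length and GC trend removal, and leaving out each sample.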

Additional observations from a re-analysis of the deposited data

Results flagged for a closer look

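WT 4 stood apart from the other WT samples for 2 fibrillar collagen genes. Its Col1a2 value was 9.56, and the gap to the nearest WT sample was 0.928 of the group's whole range. Its Col5a2 value was 2.09, and the gap was 0.871 of the range. In all, 14 collagen genes were checked in the WT group, where chance alone would set about 0.7 apart.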

How the results depend on the processing

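Of the 4 collagen genes called by limma, Col4a5 and Col9a2 were called in all 15 alternative limma fits that tested them, Col12a1 in 14 and Col5a1 in 13. All of these fits but the unfiltered one kept the main filter, so they share its selection of genes. Without a filter 7 collagen genes were called, 5 of them lower, and Col5a1 was lost (adjusted p = 0.0665). With edgeR 4 were lower. With the length and GC trend removed 1 was lower, and 3 were higher with Col6a4 among them (0.67, adjusted p = 0.0339). Leaving out a sample, limma called 1 (without Ngfr KO 1) to 3 (without WT 4) collagen genes higher, and edgeR called 2 to 7 collagen genes beside 6 with all samples; the edgeR leave-one-out fits were added after seeing the data. Over all genes limma called 2844, with a minimum value of 10 535, and with a sample left out 1727 to 3051, the lowest without Ngfr KO 2. No collagen gene passed the minimum of 10. Replicate numbers were not taken as pairs in the main fit. Same-number correlations were 0.298, -0.059 and -0.011, and WT 4 has no partner. The first, for replicate 1, was the highest between any WT and Ngfr KO sample, so pairing there is not settled. With the replicate block 5 collagen genes were called, Col6a4 being added (0.59, adjusted p = 0.0268), and 2717 genes in all. Since WT 4 has no partner, it adds nothing to the change in that fit. The Col6a4 change was thus the same as without WT 4 (0.59), so this is not separate evidence for it. Other normalizations and pseudocounts left the collagen count at 4, and no scaling moved the median gene by more than 0.0714 on the log2 scale. Depth limits the 9 collagen genes too sparse for edgeR.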
